A study of Mus musculus with 4 samples.

Results

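To examine whether loss of the m6A reader YTHDF2 was accompanied by a stress response in mouse embryonic stem cells (ESCs), 39 genes of the integrated stress response and the unfolded protein response were followed in control and Ythdf2-knockdown cells. The 39 genes were chosen by name, as eIF2 kinases, targets of ATF4 and CHOP, serine and one-carbon enzymes and endoplasmic reticulum (ER) stress genes, out of 49997 genes in the count table. All 39 were listed there, and all 39 passed the filter on low counts that left 18341 genes for testing. E14 is a widely used pluripotent cell line that came from a blastocyst, and it was grown on gelatin with serum replacement and leukemia inhibitory factor. Per the study's methods they were stable lines made by lentiviral infection and kept under puromycin, so that control cells carried the vector and the selection as well. The methods also describe the ESCs as carrying a tdTomato reporter under the MERVL promoter, which the labels do not mention for these libraries. The control group (shScramble) expressed a scrambled short hairpin RNA and the knockdown group (shYthdf2) a hairpin directed at Ythdf2. The study lists more than 1 hairpin against Ythdf2, and the labels do not say which was used or whether a library came from 1 clone. Each group had 2 libraries, which the study's methods call independent biological replicates.

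The integrated stress response begins with kinases that phosphorylate the translation factor eIF2. General protein synthesis then slows while the mRNA of the transcription factor ATF4 is translated better, and ATF4 with its partners switches on genes for amino acid supply, tRNA charging and, when the stress lasts, cell death. The unfolded protein response reads the folding state of the ER through the sensors PERK, IRE1 and ATF6. PERK is itself an eIF2 kinase and joins both pathways, IRE1 splices Xbp1 mRNA into the form that encodes an active transcription factor, and ATF6 and XBP1 raise the chaperones and the degradation machinery of the ER. Phosphorylation, translation and Xbp1 splicing are not seen in counts per gene, so the levels given here are mRNA levels only.

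The factors of both pathways read short DNA elements close to the start sites of their target genes. ATF4 with a C/EBP partner binds the C/EBP-ATF response element, whose core was searched as TTGCATCA. ATF6 binds the ER stress response element (ERSE), searched as CCAAT and CCACG separated by 9 bases, and the unfolded protein response element (UPRE) was searched as TGACGTGG. Both strands of the RefSeq promoters (GRCm38.p6), from 250 bases before to 50 bases after a start site, were read for these letters. The UPRE letters hold the reverse of CCACG, so a UPRE and an ERSE match can overlap. Promoters were matched for 37 of the 39 members, all but Cth and Manf. The C/EBP-ATF core was found in the promoters of 6 of the 37 members (16.2%). Among all promoters read, 279 of 27025 genes (1.03%) had it, or 294 of 32851 promoters (0.895%). The members were chosen by name as genes of these pathways, so the shares for this and the other elements are no independent result. The sequences show where the letters lie, as 30-base windows in the direction of transcription with the core in capitals, TTGCATCA on the coding strand or TGATGCAA on the other.
Atf3: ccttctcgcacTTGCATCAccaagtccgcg
Nupr1: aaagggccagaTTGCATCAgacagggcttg
Chac1: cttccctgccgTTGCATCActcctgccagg
Vldlr: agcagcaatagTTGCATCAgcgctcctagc
Herpud1: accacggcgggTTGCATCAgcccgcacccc
Pycr1: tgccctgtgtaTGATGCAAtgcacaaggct

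The Atf3 window lay at chr1:191183425-191183454 on the minus strand, the Nupr1 window at chr7:126625562-126625591 on the minus strand, and the Chac1 window at chr2:119351038-119351067 on the plus strand. The Vldlr window was at chr19:27216809-27216838 on the plus strand, inside the span that the count table gives for Vldlr. The Herpud1 window was at chr8:94386306-94386335 on the plus strand and the Pycr1 window at chr11:120643833-120643862 on the minus strand. The first base of the core stood between -200 (Vldlr) and -103 (Pycr1) from the start site of the promoter. An ERSE match was found in 5 of the 37 members (13.5%), against 37 of 27025 genes (0.137%), or 39 of 32851 promoters (0.119%). In these windows the capitals are the CCAAT and CCACG parts, or ATTGG and CGTGG where the element is read from the other strand.
Syvn1: tcgcaaCCAATcggcggtagCCACGggaac
Canx: tattgaCCAATcaccacgctCCACGaagaa
Pdia6: cagagaCCAATgaaaggcggCCACGgcgtg
Calr: acaacgCGTGGtcgaccctcATTGGcccat
Creld2: gcttctCGTGGcgagcctcaATTGGtccac

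The Syvn1 window lay at chr19:6046526-6046555 (plus strand), the Canx window at chr11:50325795-50325824 (minus), the Pdia6 window at chr12:17266485-17266514 (plus), the Calr window at chr8:84847070-84847099 (minus) and the Creld2 window at chr15:88819514-88819543 (plus). A UPRE match was found in 0 of the 37 members and in 193 of 27025 genes (0.714%), or 222 of 32851 promoters (0.676%). A match is a run of letters and no evidence of binding, and a promoter with no match says only that these letters are not in this window. The groups of members with a C/EBP-ATF core and with an ERSE do not share a gene.

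The libraries held between 31113006 and 36422510 counted reads, and values per library are given as CPM, the read count scaled by TMM to a common depth. The targeted Ythdf2 mRNA, with 3365 and 2760 reads in the controls and 1086 and 1082 reads in the knockdown, fell by 1.55 on the log2 scale (SE 0.11, edgeR's quasi-likelihood test with Benjamini-Hochberg adjustment over 18341 genes, adjusted p = 0.00069). All 9 ESC markers examined were present in every library, with a summed level of 5668 to 6592 CPM, against 12.3 to 19.9 CPM for 7 primitive endoderm markers and at most 18 CPM for 7 fibroblast or feeder markers, of which Dcn was at 0 in every library. Of the 9 ESC markers, 3 had a log2 fold change above 0 and 6 below, and 1 passed the test (11.1%, against 3.91% of all genes tested). This was Tdgf1, which encodes a NODAL co-receptor and is named after its values were seen. Tdgf1 fell by 0.47 on the log2 scale (SE 0.11, edgeR adjusted p = 0.041). DESeq2, the study's tool, called 2 of the 9 lower, Tdgf1 and Nanog, and it called 9.77% of all genes with an adjusted p. Nanog fell by 0.41 on the log2 scale (SE 0.10, edgeR adjusted p = 0.059, DESeq2 adjusted p = 0.0050). The summed ESC markers were lower in both shYthdf2 libraries (6229 and 5668 CPM) than in both shScramble libraries (6592 and 6362 CPM). The summed fibroblast or feeder markers were lower as well, at 9.54 and 15.8 CPM against 17.3 and 18 CPM. Thy1 made up most of that sum, with 13.2 and 15.2 CPM in shScramble and 7.78 and 13.6 CPM in shYthdf2, and its groups overlapped. Of the 3 fibroblast or feeder markers tested, 1 had a log2 fold change above 0 and 2 below, and 0 passed the test. The part of either marker group in the results that follow was not tested. Mitochondrial genes took 1.5% to 2.03% of reads. In bulk RNA, fewer cells of a type and less RNA per cell cannot be told apart.

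The stress genes were expressed in every library, and the groups overlapped in their summed level. Together the 39 members came to 3738 and 3613 CPM in shScramble and to 3964 and 3702 CPM in shYthdf2, so that the shYthdf2 libraries lay on either side of the higher control. Abundant genes weigh most in this sum, with shScramble means of 735 CPM for Calr and 713 CPM for Canx, against 5.06 CPM for Ddit3. No member was at 0, and reads per library ranged from 22 (Nupr1) to 31050 (Calr). Levels between genes were compared as reads per kilobase of exon, scaled like CPM to depth (RPKM). The order in shScramble was led by ER chaperones, with Calr at 379 ± 14.0 RPKM, Canx at 166 ± 5.82 RPKM, Pdia6 at 159 ± 4.94 RPKM and Manf at 148 ± 3.26 RPKM (SD, n = 2). The SD ranges of Canx and Pdia6 overlapped.

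Below the chaperones came the enzyme Asns at 120 ± 4.91 RPKM (SD, n = 2). Creld2 (55.8 ± 5.45 RPKM), Psat1 (55.7 ± 0.98 RPKM), Atf4 (54.0 ± 13.5 RPKM) and Shmt2 (53.4 ± 0.11 RPKM) followed Pdia4 (67.5 ± 1.93 RPKM), and neighbours from Creld2 to Shmt2 did not differ beyond the larger SD of each pair (n = 2). At the bottom of the order were 6 genes. Ddit3 was at 1.99 ± 0.45 RPKM, Chac1 at 1.86 ± 0.28 RPKM, Nupr1 at 1.07 ± 0.14 RPKM, Stc2 at 1.00 ± 0.80 RPKM, Atf3 at 0.68 ± 0.03 RPKM and Vldlr at 0.23 ± 0.11 RPKM in shScramble (SD, n = 2). Chac1 and Ddit3 did not differ beyond their spread, and the SD of Stc2 took in the levels of its neighbours Nupr1 and Atf3.

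**Figure D1:**
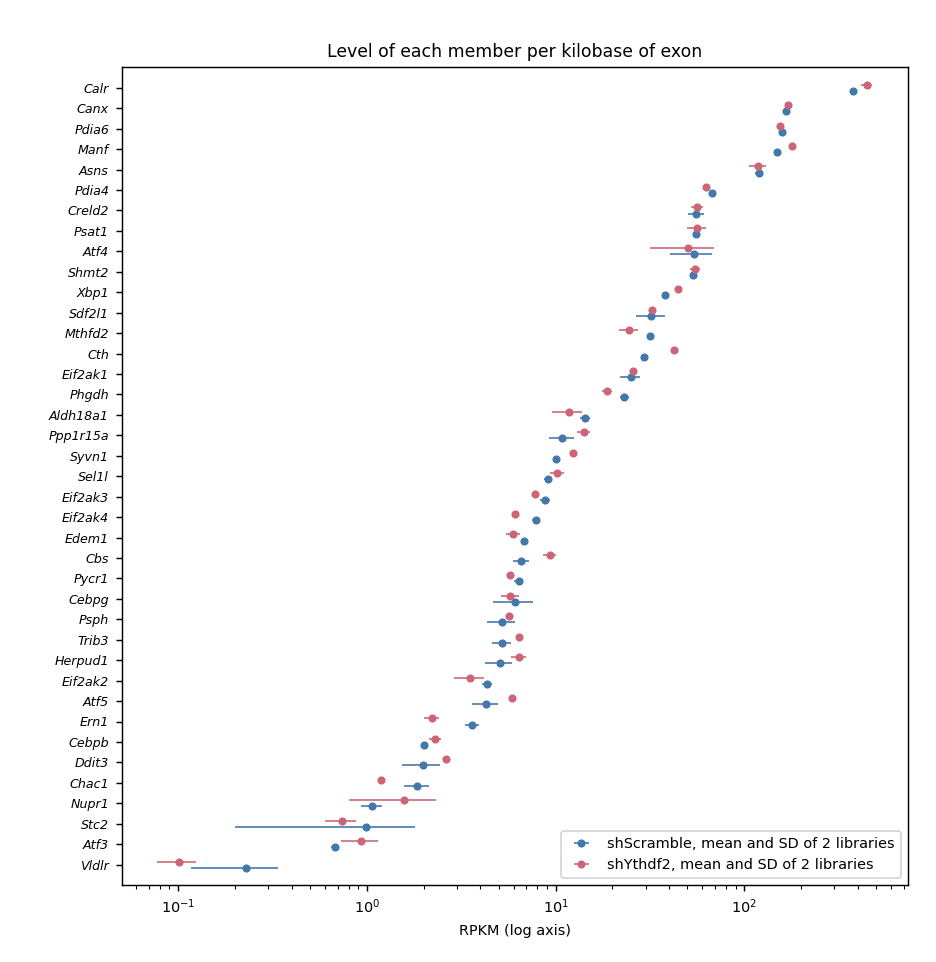
Level of each of the 39 members in RPKM on a log axis, with a point for the mean and a bar for the SD of 2 libraries in each group, ordered by the shScramble mean. Calr is at the top with 379 RPKM in shScramble and 445 RPKM in shYthdf2, and Vldlr is at the bottom with 0.23 and 0.10 RPKM.

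Across the 39 members, 1 gene passed an adjusted p of 0.05 in edgeR. Cth, which encodes the transsulfuration enzyme that makes cysteine from cystathionine, rose, and 0 members fell at this threshold. This was 2.56% of the members, against 3.91% of all genes tested, or 2.43% higher and 1.49% lower. Log2 fold changes were above 0 for 22 members and below 0 for 17, with a median of 0.02, and the median over all genes tested was 0.0019. At an unadjusted p under 0.05, 7 members were higher (17.9%, against 11% of all genes) and 5 were lower (12.8%, against 9.8%). The 7 were Atf5, Ppp1r15a, Cth, Cbs, Syvn1, Calr and Manf, and the 5 were Eif2ak4, Vldlr, Phgdh, Mthfd2 and Ern1. These names are given because they make up the counts and were chosen after their values were seen.

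How large a difference the data leave room for was read from the intervals. The 95% interval of the log2 fold change lay inside 1 in either direction for 33 of the 39 members (84.6%), against 59.1% of all genes tested. The 6 members for which a change of that size was left inside the interval were Atf3, Nupr1, Chac1, Stc2, Vldlr and Ern1, of which the first 5 were also among the lowest in RPKM. Standard errors ran from 0.10 to 0.55 on the log2 scale, with a median of 0.14. The shYthdf2 libraries lay both above or both below the shScramble libraries for 26 members (66.7%), 14 above and 12 below, against 51.8% of all genes tested.

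DESeq2 called Cth higher and Ern1 lower, and called 9.77% of the 14565 genes to which it gave an adjusted p. It gave none for Nupr1. By the study's criteria in DESeq2, a raw p up to 0.05 together with a log2 fold change of 1 or more in either direction, 0 members passed, against 2.88% of the genes with a read. In 6 members the libraries numbered 1 lay apart from those numbered 2 whatever their group (15.4%, against 30.5% of all genes tested). Atf4, Asns, Psat1, Canx and Creld2 were higher in both libraries numbered 1, and Cebpg was lower in them. The labels do not say that a number stands for a shared day or batch.

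**Figure D2:**
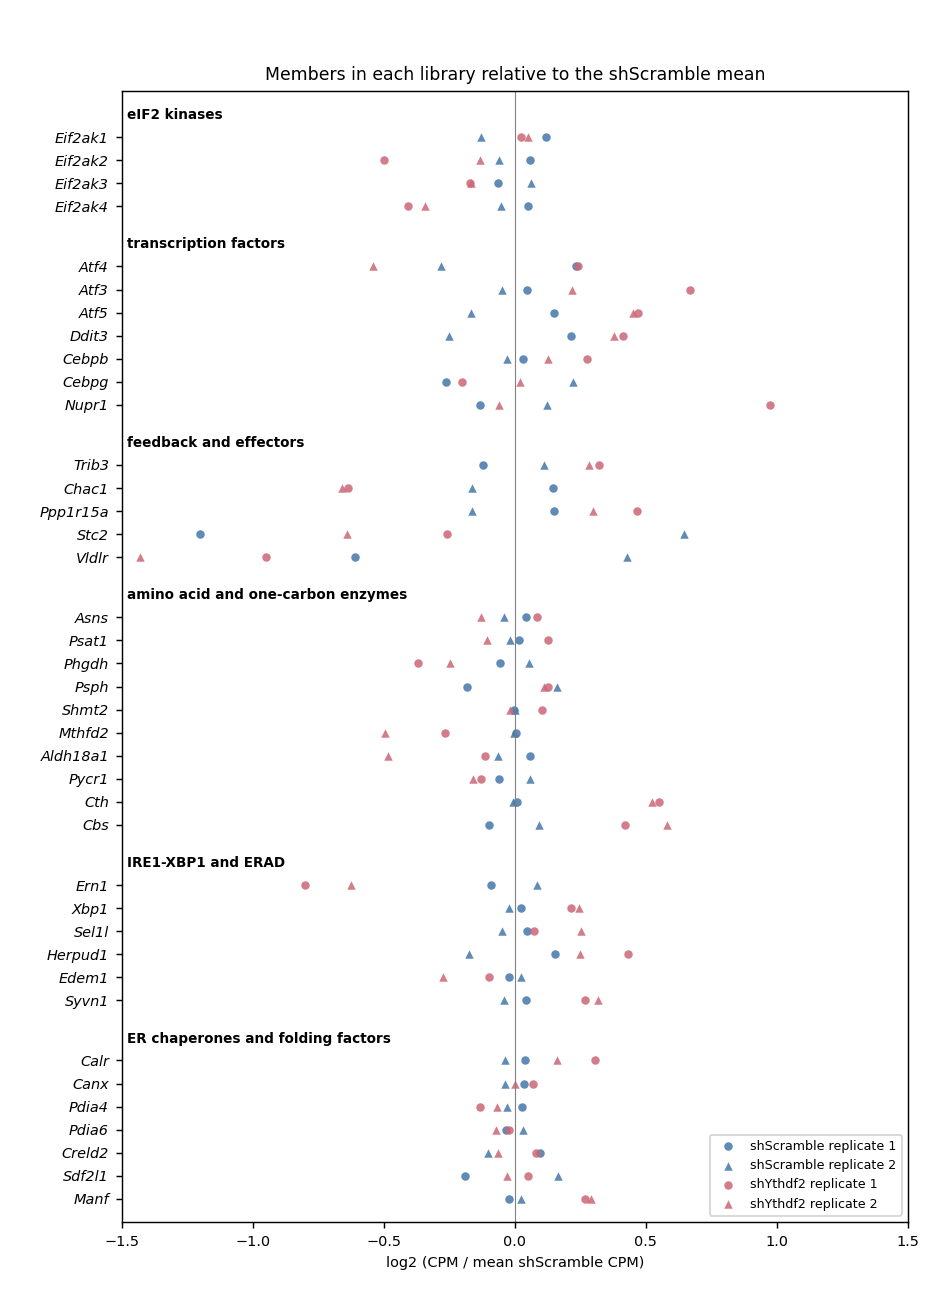
Level of each member in each of the 4 libraries, as log2 of its CPM over the mean shScramble CPM, grouped by role, with circles for replicate 1 and triangles for replicate 2. Both shYthdf2 points of Cth lie close to 0.5 and apart from the shScramble points, while the points of Atf4 fall together by replicate number.

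The eIF2 kinases sense different stresses and were read first. Eif2ak4 encodes GCN2, which responds to uncharged tRNA when amino acids are short. It was at 43.0 and 40.1 CPM in shScramble and at 31.4 and 32.8 CPM in shYthdf2. Both knockdown libraries were below both controls, with a log2 fold change of -0.37 (SE 0.13) that did not pass the test (edgeR adjusted p = 0.13). Eif2ak4 spans chr2:118388583-118475234 on the plus strand (mm10, as are the gene spans that follow). Eif2ak3 encodes the ER sensor PERK and measured 40.8 and 44.5 CPM in shScramble and 37.9 and 38.0 CPM in shYthdf2. The groups did not overlap, and the log2 fold change was -0.17 (SE 0.12, edgeR adjusted p = 0.48), or -0.11 without shScramble replicate 2.

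Eif2ak2 encodes PKR, the kinase that binds double-stranded RNA. Its levels were 30.1 and 27.7 CPM in shScramble and 20.4 and 26.4 CPM in shYthdf2, with shYthdf2 replicate 1 the lowest and replicate 2 close to the controls. The log2 fold change was -0.30 (SE 0.16, edgeR adjusted p = 0.33), or -0.13 without shYthdf2 replicate 1 and -0.50 without shYthdf2 replicate 2. A share of 33.4% of the exon bases of Eif2ak2 overlaps Gm26637 or Gm6548, so that reads there were left out or could belong to either gene. Eif2ak1 encodes HRI, which answers heme shortage and mitochondrial stress. It stood at 75.8 and 63.8 CPM in shScramble and 70.9 and 72.3 CPM in shYthdf2, the knockdown libraries lying between the controls (log2 fold change 0.04, SE 0.12, edgeR adjusted p = 0.90). Of the 4 kinases, 3 had a lower mean in shYthdf2 with no overlap (75%, against 51.8% of all genes tested not overlapping). Of the 4, 0 passed the test, and their median log2 fold change was -0.24.

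Transcription factors carry the signal to the genome. Atf4, the central factor of the integrated stress response, spans chr15:80255184-80257545 on the plus strand. Its normalised counts were 110 and 76.9 CPM in shScramble and 110 and 64.2 CPM in shYthdf2. The first library of each group was at the same level and the second was lower in both, so the groups overlapped entirely. Its fold change was -0.10 on the log2 scale, with a 95% interval from -0.62 to 0.42 (SE 0.23, edgeR adjusted p = 0.86). Leaving out 1 library moved it between -0.54 and 0.24, and without shYthdf2 replicate 1 it was -0.54 with an edgeR adjusted p of 0.0077. Ddit3 encodes CHOP, which acts downstream of ATF4 and is linked to cell death under lasting stress. It gave 211 and 134 reads in shScramble and 230 and 235 reads in shYthdf2, or 5.86, 4.25, 6.73 and 6.57 CPM. The knockdown libraries were both above the controls, but the controls differed more from each other than the higher control from the knockdown, and the log2 fold change of 0.39 did not pass (SE 0.25, edgeR adjusted p = 0.42). Leaving out shScramble replicate 1 made it 0.65, and leaving out replicate 2 of the same group made it 0.18. A share of 5.82% of the Ddit3 exon bases overlaps Mars1 or Mbd6 on the other strand.

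Atf5, a relative of ATF4 under similar translational control, had the smallest p of the transcription factors. It measured 9.47 and 7.59 CPM in shScramble and 11.8 and 11.7 CPM in shYthdf2, with both knockdown libraries higher. A log2 fold change of 0.46 (SE 0.20) did not pass (edgeR adjusted p = 0.23). Atf3, an early stress-induced factor, was at 1.39 and 1.30 CPM in shScramble and 2.14 and 1.56 CPM in shYthdf2 on 41 to 73 reads (log2 fold change 0.46, SE 0.38, edgeR adjusted p = 0.55). Cebpb and Cebpg encode C/EBP factors that pair with ATF4. Cebpb was at 3.11 and 2.98 CPM in shScramble and 3.69 and 3.33 CPM in shYthdf2 (log2 fold change 0.20, SE 0.28). Cebpg was at 24.0 and 33.6 CPM in shScramble and 25.0 and 29.2 CPM in shYthdf2, with overlapping groups (log2 fold change -0.08, SE 0.18). Nupr1, a small stress-induced nuclear protein, was at 0.61 and 0.73 CPM in shScramble and at 1.32 and 0.64 CPM in shYthdf2, so that its log2 fold change of 0.54 (SE 0.54) came from 1 library of 45 reads. Of the 7 factors, 4 lay higher in both knockdown libraries (Atf3, Atf5, Ddit3 and Cebpb) and 0 lower. Groups thus did not overlap in 57.1% of the factors, against 51.8% of all genes tested, and 0 of the 7 passed the test. Their median log2 fold change was 0.39.

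Feedback regulators and effectors are the usual readout of an active ATF4 and CHOP program. Vldlr, a lipoprotein receptor gene, had the smallest p among them and spans chr19:27216480-27254231 on the plus strand. It was thinly read, with 48 and 86 reads in shScramble and 36 and 27 reads in shYthdf2, or 1.33, 2.73, 1.05 and 0.75 CPM. Both knockdown libraries were below both controls, but the controls lay further apart than shScramble replicate 1 and the knockdown. The log2 fold change of -1.16 had a 95% interval from -2.20 to -0.12 (SE 0.47, edgeR adjusted p = 0.19), and it was -1.59 without shScramble replicate 1 (edgeR adjusted p = 0.043) and -0.56 without shScramble replicate 2 (edgeR adjusted p = 0.80). Chac1, which degrades glutathione and is strongly induced by ATF4, was at 3.22 and 2.60 CPM in shScramble and 1.87 and 1.84 CPM in shYthdf2 (log2 fold change -0.65, SE 0.32, edgeR adjusted p = 0.29). Both knockdown libraries were the lower for Chac1.

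Ppp1r15a encodes GADD34, the phosphatase subunit that reverses eIF2 phosphorylation. It was at 28 and 22.6 CPM in shScramble and 35.0 and 31.1 CPM in shYthdf2, higher in both knockdown libraries without passing the test (log2 fold change 0.38, SE 0.15, edgeR adjusted p = 0.19). Trib3, a pseudokinase that restrains ATF4 and AKT, was at 9.80 and 11.5 CPM in shScramble and 13.3 and 13 CPM in shYthdf2 (log2 fold change 0.30, SE 0.19, edgeR adjusted p = 0.40). Stc2, a secreted glycoprotein gene, was counted 28 and 88 times in the controls and 51 and 41 times in the knockdown, which lay between the controls (log2 fold change -0.43, SE 0.55). The 5 genes of this group thus split, with Trib3 and Ppp1r15a higher in both knockdown libraries and Chac1 and Vldlr lower in both. That is 80% not overlapping, against 51.8% of all genes tested, and 0 of the 5 passed the test. Their median log2 fold change was -0.43.

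The enzymes held the member that passed the edgeR test. Cth (chr3:157894248-157925081, minus strand) drew 1938 and 1676 reads in the shScramble libraries, against 2680 and 2755 in shYthdf2. Scaled, this was 53.8 and 53.2 CPM in shScramble and 78.4 and 77.0 CPM in shYthdf2. The libraries of a group agreed within 2 CPM of each other, and the groups stood apart. Cth rose 1.45-fold (95% interval 1.23 to 1.71), or by 0.54 on the log2 scale (SE 0.11, edgeR adjusted p = 0.029), and ranked 348 of 18341 genes by p. DESeq2 gave an adjusted p of 0.0014. Without shScramble replicate 2 its log2 fold change was 0.53 with an edgeR adjusted p of 0.072, and it passed under 12 of the 13 other settings tried that call genes by an adjusted p.

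Cbs encodes the enzyme before CTH in transsulfuration, which joins homocysteine and serine. It spans chr17:31612623-31637233 on the minus strand. Its levels were 16.9 and 19.3 CPM in shScramble and 24.3 and 27.1 CPM in shYthdf2, both knockdown libraries above both controls. The log2 fold change of 0.50 was close to that of Cth, with a larger error, and did not pass (SE 0.16, edgeR adjusted p = 0.11, DESeq2 adjusted p = 0.056). Mthfd2, a mitochondrial one-carbon enzyme gene, was at 77.7 and 77.2 CPM in shScramble and 64.4 and 54.9 CPM in shYthdf2 (log2 fold change -0.38, SE 0.12, edgeR adjusted p = 0.11). Phgdh, the first enzyme of serine synthesis, was at 41.6 and 45 CPM in shScramble and 33.6 and 36.5 CPM in shYthdf2 (log2 fold change -0.31, SE 0.13, edgeR adjusted p = 0.20). Both lay lower in the knockdown libraries, neither passed, and 17.2% of the 150-base windows of Phgdh transcripts also occur in Gm7901 or Gm9347, so its counts are uncertain.

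The remaining enzymes of the serine route stayed closer to the controls. Psat1, the second enzyme, was at 141 and 137 CPM in shScramble and 152 and 129 CPM in shYthdf2 (log2 fold change 0.02, SE 0.11). Psph, the third, was at 16.4 and 20.8 CPM in shScramble and 20.3 and 20.04 CPM in shYthdf2 (log2 fold change 0.12, SE 0.17). Shmt2, which passes the serine carbon to folate in mitochondria, was at 123 CPM in both shScramble libraries and at 132 and 121 CPM in shYthdf2 (log2 fold change 0.04, SE 0.10). The groups overlapped for each of these enzymes.

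Asns makes asparagine and is a classical ATF4 target. It was at 291 and 275 CPM in shScramble and 300 and 259 CPM in shYthdf2, a log2 fold change of -0.02 with a 95% interval from -0.27 to 0.23. The interval leaves room for a change of at most that size, and the groups overlapped. Aldh18a1 and Pycr1 encode proline synthesis enzymes. Aldh18a1 was at 52.8 and 48.5 CPM in shScramble and 46.8 and 36.2 CPM in shYthdf2 (log2 fold change -0.29, SE 0.14, edgeR adjusted p = 0.30). Pycr1 was at 14.5 and 15.8 CPM in shScramble and 13.9 and 13.6 CPM in shYthdf2 (log2 fold change -0.14, SE 0.17). Of the 10 enzymes, 2 lay higher in both knockdown libraries (Cth and Cbs) and 4 lower (Phgdh, Mthfd2, Aldh18a1 and Pycr1). That is 60% not overlapping, against 51.8% of all genes tested, and 1 of the 10 passed. Their median log2 fold change was -0.00088.

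**Figure D3:**
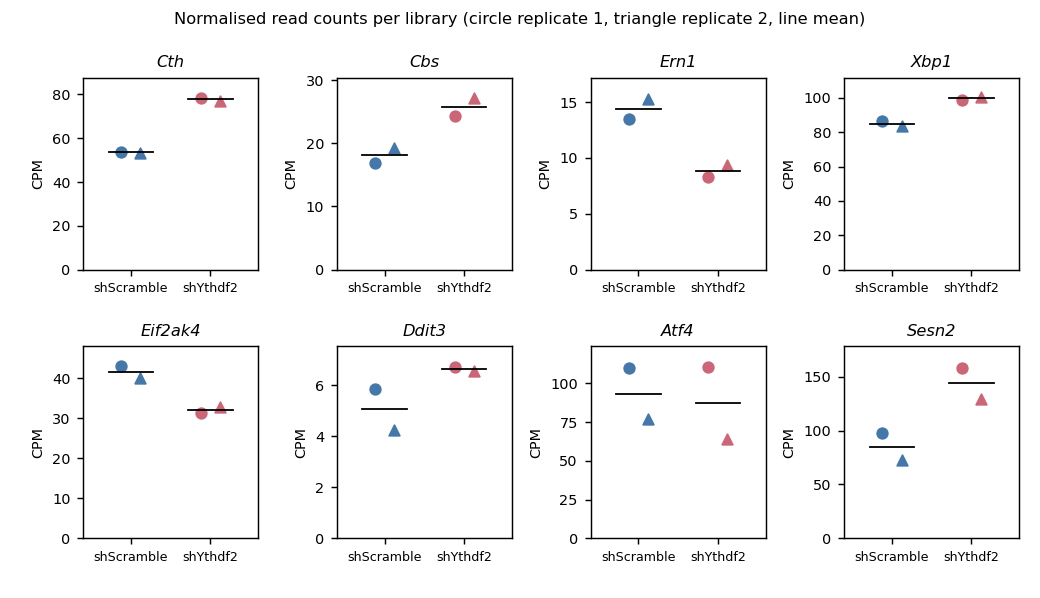
Normalised read counts (CPM) of 8 genes in each library, with a circle for replicate 1, a triangle for replicate 2 and a line at the group mean. The shYthdf2 points of Cth (78.4 and 77.0 CPM), Cbs, Xbp1, Ddit3 and Sesn2 stand above all shScramble points. Those of Ern1 and Eif2ak4 stand below, and the points of Atf4 pair by replicate number. Of all genes tested, 51.8% did not overlap between the groups.

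In the IRE1 branch and ER-associated degradation, the sensor and its target had fold changes of opposite sign. Ern1 encodes IRE1 and spans chr11:106397620-106487796 on the minus strand. The shScramble libraries held 486 and 481 Ern1 reads and the shYthdf2 libraries 282 and 334, or 13.5, 15.3, 8.25 and 9.33 CPM. Both knockdown libraries were below both controls, with a log2 fold change of -0.71 and a 95% interval from -1.13 to -0.28. This did not pass edgeR (SE 0.19, edgeR adjusted p = 0.071), whereas DESeq2 gave an adjusted p of 0.023, and Ern1 passed under 5 of those 13 settings.

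Xbp1, the mRNA that IRE1 splices, spans chr11:5520641-5525993 on the plus strand. It was at 86.4 and 83.7 CPM in shScramble and 98.6 and 101 CPM in shYthdf2. The knockdown libraries were both higher, with a log2 fold change of 0.23 that did not pass (95% interval -0.00235 to 0.46, SE 0.10, edgeR adjusted p = 0.25). Syvn1 and Sel1l encode the ubiquitin ligase HRD1 and its partner. Syvn1 was at 38.0 and 35.9 CPM in shScramble and 44.5 and 46.0 CPM in shYthdf2 (log2 fold change 0.29, SE 0.12, edgeR adjusted p = 0.20), and Sel1l was at 59.3 and 55.5 CPM in shScramble and 60.3 and 68.3 CPM in shYthdf2 (log2 fold change 0.17, SE 0.12). Herpud1, which assembles with that ligase, was at 11.0 and 8.76 CPM in shScramble and 13.3 and 11.7 CPM in shYthdf2 (log2 fold change 0.34, SE 0.20). Edem1, which hands misfolded glycoproteins to degradation, was at 72.1 and 74.5 CPM in shScramble and 68.4 and 60.6 CPM in shYthdf2 (log2 fold change -0.18, SE 0.11). In each of these 6 genes the groups did not overlap, 4 higher and 2 lower in shYthdf2, where 51.8% of all genes tested did not overlap, and 0 of the 6 passed the test. Their median log2 fold change was 0.20.

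The ER chaperones and folding factors had the smallest median standard error of the 6 role groups, at 0.10 on the log2 scale. Manf, a secreted ER stress protein, had the smallest p and spans chr9:106888753-106891938 on the minus strand. It was at 127 and 131 CPM in shScramble and 155 and 158 CPM in shYthdf2, above both controls in both libraries. This log2 fold change of 0.28 did not pass (95% interval 0.05 to 0.50, SE 0.10, edgeR adjusted p = 0.15). Calr and Canx encode the lectin chaperones of the ER. Calr was at 755 and 716 CPM in shScramble and 908 and 822 CPM in shYthdf2, both knockdown libraries the higher (log2 fold change 0.23, SE 0.10, edgeR adjusted p = 0.24). Canx was at 731 and 695 CPM in shScramble and 749 and 714 CPM in shYthdf2, with overlapping groups (log2 fold change 0.04, SE 0.10).

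Pdia4 and Pdia6 encode protein disulfide isomerases. Pdia4 was at 183 and 176 CPM in shScramble and 163 and 171 CPM in shYthdf2 (log2 fold change -0.10, SE 0.10), and Pdia6 was at 335 and 350 CPM in shScramble and 337 and 325 CPM in shYthdf2 (log2 fold change -0.05, SE 0.10). Pdia4 lay lower in both knockdown libraries and Pdia6 overlapped. Creld2, an ER stress-inducible folding factor, was at 81.4 and 70.8 CPM in shScramble and 80.4 and 72.7 CPM in shYthdf2, where again the libraries numbered 1 were the higher in both groups. Sdf2l1, a cochaperone of BiP, was at 31.3 and 40.1 CPM in shScramble and 37.0 and 35.0 CPM in shYthdf2 and overlapped (log2 fold change 0.01, SE 0.15). Of the 7 genes, 2 lay higher in both knockdown libraries (Calr and Manf) and 1 lower (42.9% not overlapping, against 51.8% of all genes tested). Of the 7, 0 passed the test. Their 95% intervals all lay inside a log2 fold change of 1 in either direction, and their median was 0.01.

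**Figure D4:**
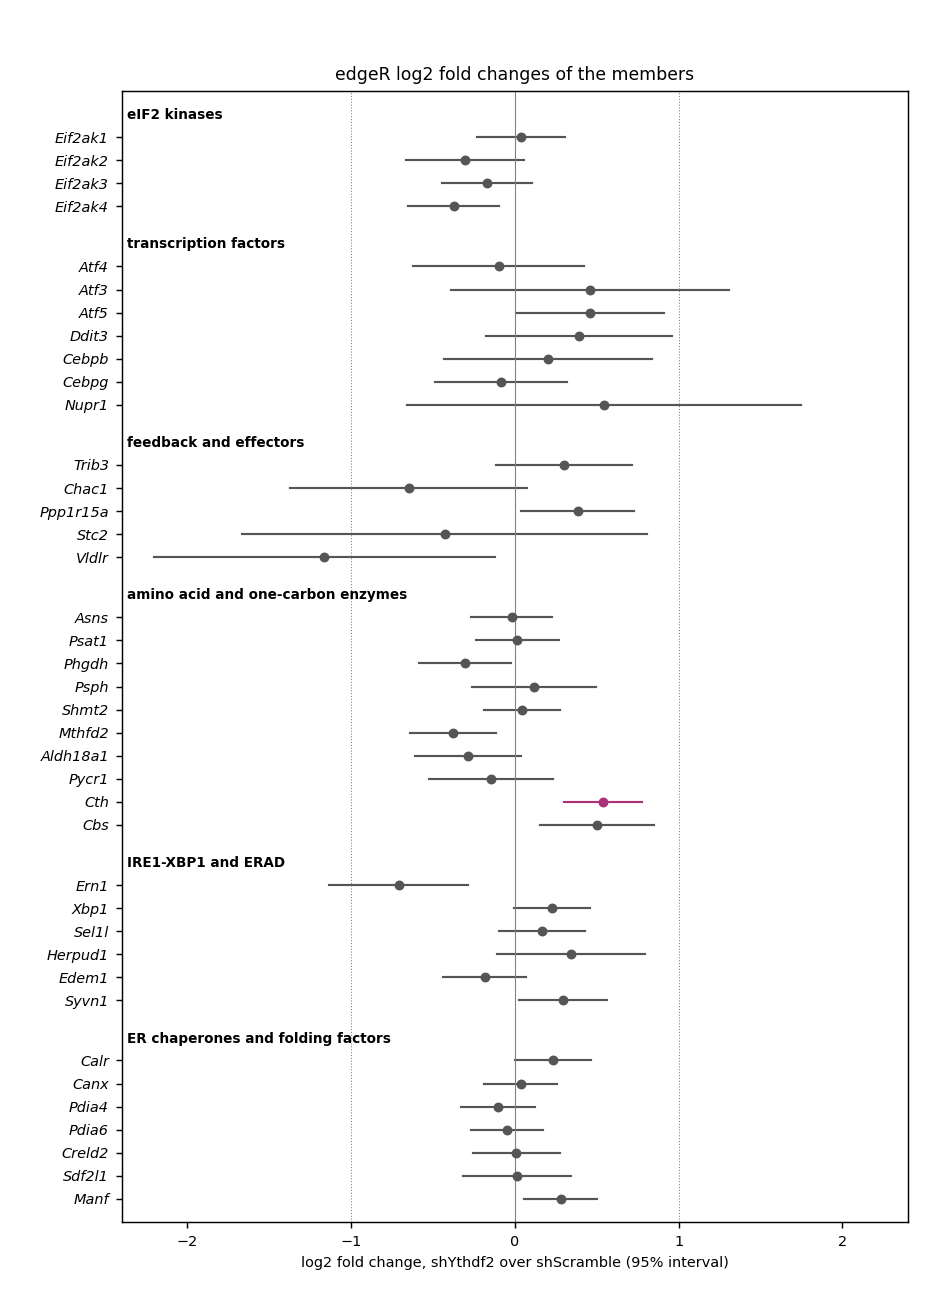
Log2 fold change of each member, shYthdf2 over shScramble, as a point with its 95% interval derived from the edgeR fit, grouped by role. Dotted lines are at 1 in either direction, and the member that passed the test is in purple. Only Cth (0.54) passed an edgeR adjusted p of 0.05, and the intervals of 33 of the 39 members stay between the dotted lines.

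Members that share a promoter match had fold changes of both signs. Of the 6 with a C/EBP-ATF core, Atf3, Nupr1 and Herpud1 had a log2 fold change above 0 (0.34 to 0.54) and Chac1, Vldlr and Pycr1 below 0 (-1.16 to -0.14). Of the 5 with an ERSE, the log2 fold change was 0.29 for Syvn1, 0.23 for Calr, 0.04 for Canx, 0.01 for Creld2 and -0.05 for Pdia6. None of these 11 genes passed the edgeR test, in which 1 of the 39 members passed (2.56%, against 3.91% of all genes tested). An unadjusted p under 0.05 was found in 12 of the 39, against 3822 of 18341 genes tested. Among the 12 were Vldlr, Syvn1 and Calr of these 11 genes.

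Other genes of the same pathways were read from a list of 64, such as aminoacyl-tRNA synthetases, ATF4-driven transporters, subunits of eIF2B and further chaperones. Of these 63 were tested, and Fgf21 had 0 reads in every library. Sesn2 rose and 0 fell, which was 1.59% of those tested against 3.91% of all genes. Sesn2 encodes SESTRIN2, a leucine sensor that restrains mTORC1 and is a target of both ATF4 and p53. It spans chr4:132492804-132510456 on the minus strand, and its reads numbered 3515 and 2275 in the controls and 5392 and 4642 in the knockdown. Both knockdown libraries were above both controls and the rise was 0.76 on the log2 scale (SE 0.16, edgeR adjusted p = 0.031), and Sesn2 passed under all 13 settings named for Cth.

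Hspa5, which encodes BiP, the main ER chaperone and the usual marker of the unfolded protein response, drew 19929 and 16304 reads in the shScramble libraries, against 21519 and 22690 in shYthdf2. The estimate was a log2 fold change of 0.24 (95% interval 0.02 to 0.46, SE 0.10), the knockdown libraries lying above the controls without passing (edgeR adjusted p = 0.21). The median log2 fold change of the 63 genes was 0.04, with 36 above 0 and 27 below. At an unadjusted p under 0.05, 9 were higher (14.3%, against 11% of all genes tested) and 5 lower (7.94%, against 9.8%). DESeq2 called Sesn2, Gdf15 and Cars higher and Jdp2 and Ero1a lower among the 63, and it called 9.77% of all genes with an adjusted p. Gdf15, a secreted stress cytokine gene, had 29 and 56 reads in shScramble and 126 and 116 in shYthdf2 (log2 fold change 1.43, SE 0.41, edgeR adjusted p = 0.084). In 29 of the 63 genes (46.0%, against 30.5% of all genes tested) the libraries numbered 1 lay apart from those numbered 2. Those numbered 1 were the higher in 24 of the 29, and over all genes tested in 2793 of 5593.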

How the data were processed

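The authors deposited 1 table of raw counts per gene for the 4 libraries. featureCounts 2.0.3 had produced these counts, per the file headers, over RefSeq exons of mm10, without a strand option, and the paired-end option counted reads and not pairs. The submitters' processing notes name fastp 0.19.4, HISAT2 2.2.1 and DESeq2 1.40.2. RNA was selected for poly(A), according to the study, and per the labels the libraries were made with dUTP and read from both ends. Counts without strand cannot tell a gene from an antisense gene over the same exons. Exons of 12 members overlap another gene, by 33.4% of bases for Eif2ak2 and at most 5.82% for the others. The deposited exon length (another unit, in bases) was used for RPKM, computed here from CPM. All 4 count columns entered the tests, and the table has 0 further per-sample columns.

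Groups and replicate numbers came from the titles. edgeR 4.0.16 in R 4.3.3 (TMM, filterByExpr with a minimum count of 10 and a minimum total of 15, quasi-likelihood F test, two-sided, no covariate, Benjamini-Hochberg over 18341 genes holding 99.9% of reads) gave the fold changes, standard errors and adjusted p. The coefficient of biological variation was 15.8%. The code was tested on simulated data. With 2 libraries a group, an exact permutation test cannot go below p = 0.333. Intervals are at 95%, computed from the derived standard errors and a t quantile. The alternatives were other scalings (RLE, upper quartile, library totals), other filters (at least 1 read in any library, or a mean of 1 CPM), DESeq2 1.42.0 with adjusted p or with the study's criteria, limma-voom (limma 3.58.1), halved counts, the replicate block and each library left out. A count of 0 allows up to 3 reads, or 0.0824 to 0.0964 CPM, for counting error only and if reads are independent. Reads of a pair were counted separately, so the limit is higher than this.

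The members, their grouping by role and the other lists were chosen with earlier results of these data known. Full statistics were planned for members with an adjusted p under 0.05, for Atf4, Ddit3, Xbp1 and the 4 kinases, for the smallest p in each role group, and, outside the members, for Hspa5 and other pathway genes with an adjusted p under 0.05. Every other member is given with its library values.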

Additional observations from a re-analysis of the deposited data

How the results depend on the processing

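The count of members higher in shYthdf2 (1) became 0 by the study's criteria and 4 with the replicate block. The member counts, higher and lower, also moved when some of the libraries were left out. Such a fit has 1 library in a group, and its counts are not given here. Of all genes, higher or lower, the study's criteria passed 2.88% and the block 19.2%. The count lower (0 in edgeR, where 5 had an unadjusted p under 0.05) became 1 without the filter and 1 in DESeq2 (Ern1). With the replicate block it became 3. The shares of all genes called, higher or lower, were 6.34% without the filter, 9.77% in DESeq2 and 19.2% with the block. The count of other pathway genes higher (1) became 4 without the filter, 3 in DESeq2 and 8 with the block, and ranged from 1 to 9 with a library left out (9 without shYthdf2 replicate 2). The count lower (0) became 2, 2 and 5, beside the same shares of all genes. The median log2 fold change of the members ranged from -0.031 to 0.080 with a library left out, the ends being without shYthdf2 replicate 1 and replicate 2. The log2 fold change of Atf4 turned to 0.18 without shScramble replicate 1 and 0.24 without shYthdf2 replicate 2, and that of Eif2ak1 to -0.082 without shScramble replicate 2. With a library left out the ranges were -0.54 to 0.24 for Atf4 and -0.082 to 0.17 for Eif2ak1. The cause of these shifts was not tested.

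Over all genes the 718 calls (3.91% of 18341) became 1938 without the filter (6.34% of 30565), 1423 in DESeq2 (9.77% of 14565) and 3525 with the block (19.2% of 18341). The same replicate numbers occur in both groups, but nothing says that they mark shared samples. Deviations from the group means correlated at 0.225 (Pearson) and 0.260 (Spearman) over the 18341 genes, and at -0.110 and 0.055 over the members. With the block, Ppp1r15a, Cth, Cbs and Manf were called higher and Eif2ak4, Mthfd2 and Ern1 lower. With 1 library left out, the lone library of its group was assumed to vary like the other group. Atf3, Nupr1, Stc2, Chac1 and Vldlr, read 22 to 116 times per library, limit what could be seen among the induced genes.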
